A study of Mus musculus with 16 samples.

Results

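Hnf4a is a nuclear receptor, a transcription factor of the hepatocyte that binds DNA as a dimer and acts in genes of lipid, bile acid and clotting factor metabolism. Foxa1, Foxa2 and Foxa3 are forkhead factors of the endoderm, known as pioneer factors because they can engage DNA that is wrapped in nucleosomes. In liver, Hnf4a and the Foxa factors are known to sit together at many enhancers and promoters. The day 30 data compared here placed the sites of Hnf4a in one culture of fibroblasts against the sites of the Foxa factors in other cultures of the same cell type.

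The members are the 448 peaks of the Hnf4a day 30 list. They were set against the pooled peaks of the Foxa1, Foxa2 and Foxa3 day 30 lists, 3770 in all, which merged into 3427 Foxa regions. Together these are 4218 of the 4839 peaks that the 8 lists of the series hold. A Hnf4a peak was counted as shared when it overlapped a Foxa region by at least 1 bp, and all others were placed by the number of bases between the edges of the peak and the nearest Foxa region, in bins that end at 1, 10 and 100 kb. Every comparison was run a second time without 2 short stretches dense in Hnf4a peaks, one at the start of chromosome 9 (Hnf4a peaks from 3000026 to 3038038) and one on chromosome 2 (98502420 to 98507457), which are called the 2 blocks below.

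All cells were mouse embryonic fibroblasts of strain C57BL/6, from embryos of 13.5 days post coitum. One culture each was infected with Hnf4alpha, Foxa1, Foxa2 or Foxa3 alone, and chromatin was taken on day 30 and precipitated with an antibody to the introduced factor. No culture is labelled as carrying both Hnf4a and a Foxa factor, so the lists compare sites across cultures and not joint binding in a cell. The growth notes also mention iHep cells, but each sample is labelled MEF, and peak lists hold no expression values by which to check the cell type. The vector and its promoter are not given in the sources used here. Each factor had 1 ChIP sample on day 30, and no value below has an error between samples; intervals are exact Clopper-Pearson 95% intervals and cover counting error only. Read depth was unknown, and absence from a list does not show absence of binding. Positions are on mm9, and no peak was assigned to a gene.

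Few Hnf4a peaks coincided with a Foxa site, and most were over 100 kb from one. Of the 448 Hnf4a peaks, 7 overlapped a Foxa region (1.56%, interval 0.63 to 3.19%), and 26 more (5.8%) lay within 1 kb. A further 56 (12.5%) lay between 1 and 10 kb away and 80 (17.9%) between 10 and 100 kb. The largest group, 279 peaks (62.3%), was over 100 kb from any Foxa region. The median distance was 202 kb, and the farthest Hnf4a peak was 5960 kb away. As set out below, 0.0315% of chromosome positions would give an overlap and 17.3% would lie within 100 kb. The shares of Hnf4a peaks, 1.56% and 37.7%, were above both.

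The 7 shared sites were on 7 chromosomes and in 7 separate places. The highest scoring was chr12:55811150-55811243, with a Hnf4a score of 11.3, which ranks 30 of 448. The score is the authors' value for each peak, read here as −log10 of a p- or q-value. It overlapped by 88 bp the left edge of a Foxa3 peak 689 bp wide with a score of 29.1, which ranks 4 of 265 in the Foxa3 list. This was the one shared site that was also in a day 2 list, that of Foxa3.

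The next was chr18:60820953-60821009 (score 8.14), which shared 48 bp with a Foxa1 peak of score 11.3, with the centres 21.5 bp apart. This was the closest match of centres among the 7. At chr15:80085995-80086080 (score 7.56), 56 bp were shared with a Foxa3 peak that scored 5.27, near the lowest score of that list, 5.08. At chr5:143582248-143582376 (score 6.77), 76 bp were shared with a Foxa1 peak of score 30.9, and a Foxa2 peak lies inside that Foxa1 peak. It is the one shared Foxa region that was in 2 Foxa lists, and it lies in a dense group of Hnf4a peaks described below.

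The remaining 3 shared sites were all at Foxa3 peaks and ranked 359, 398 and 405 of 448 by Hnf4a score. They were chr19:5845225-5845295 (score 6.41), chr16:15887522-15887607 (6.06) and chr11:101507297-101507414 (6.0). The first 2 lay wholly inside their Foxa3 peak, which scored 13.5 on chromosome 19 and 6.46 on chromosome 16. The Foxa3 peak on chromosome 11 was 666 bp wide with a score of 25.7, rank 6 of 265. Of the pooled 3770 Foxa peaks, 265 are from the Foxa3 list, whose median width is 237 bp, and 3331 from the Foxa1 list, with 119 bp; the lists were pooled and not compared with each other. Without the Foxa3 list the overlap was 2 of 448 (0.446%). With only peaks above the median score of their own list it was 0.913% of 219 peaks. These settings left 3351 and 1705 Foxa regions, against 3427 in the full union. The share of positions is not given for either, so the lower overlaps are not read further.

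The 26 peaks within 1 kb lay 66 to 984 bp from their Foxa region, with a median of 492 bp. The highest scoring was chr8:112089327-112089486 (score 11.4, rank 26), 160 bp from a Foxa1 peak of score 16.5. Next came chr11:101502884-101503005 (11.4), 66 bp from a Foxa3 peak of score 19.5. That peak and the shared site on the same chromosome form a pair of Hnf4a peaks, each beside its own wide Foxa3 peak. On chromosome 17, 3 Hnf4a peaks lay 367, 694 and 831 bp to the left of a single Foxa1 peak at chr17:84586864-84586944, with Hnf4a scores from 9.69 to 11.3.

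Single Hnf4a peaks beside a Foxa1 peak were found at chr13:23677613-23677743 (score 8.67, 795 bp away) and chr17:34168838-34168920 (8.4, 300 bp). On chromosome 14, chr14:26279767-26279913 (8.14) lay 348 bp from a Foxa2 peak that overlaps a Foxa1 peak. Another of the 10 highest scoring was chr16:15888304-15888369 (8.76), 694 bp from the Foxa3 peak of the shared site on that chromosome. The last of these 10 was chr11:120092189-120092352 (8.66), 434 bp from a region listed for Foxa1 and Foxa3. The other 16 peaks within 1 kb had scores of 5.1 to 7.9.

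To read these shares, they were set beside the share of chromosome positions at which a peak of the median Hnf4a width, 87 bp, would meet the same limit. Such positions made up 0.0315% of the length for an overlap, against the 1.56% of peaks observed, a ratio of 49.6. Within 1 kb the values were 7.37% of peaks (5.12 to 10.2%) against 0.265% of positions, and within 10 kb 19.9% (16.3 to 23.9%) against 2.22%. Within 100 kb they were 37.7% (33.2 to 42.4%) against 17.3%. The ratio thus fell with distance, from 49.6 to 27.8, 8.97 and 2.18. These shares are cumulative, and the highest ratio possible falls as the share of positions grows. The size of the fall is therefore not read further. With each chromosome weighted by its number of Hnf4a peaks, the share of positions was 0.0339, 0.286, 2.4 and 18.6%. This is a description and not a test, because the positions include sequence to which reads cannot be mapped and chromatin that is closed in fibroblasts. Without the Foxa1 list, which holds 3331 of the Foxa peaks, the share within 100 kb was 19.4%. That share is not to be set beside the 17.3%, which is for all 3427 Foxa regions. Without Foxa1 only 400 regions remained, which cover fewer positions, and their share of positions is not given here.

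**Figure D1:**
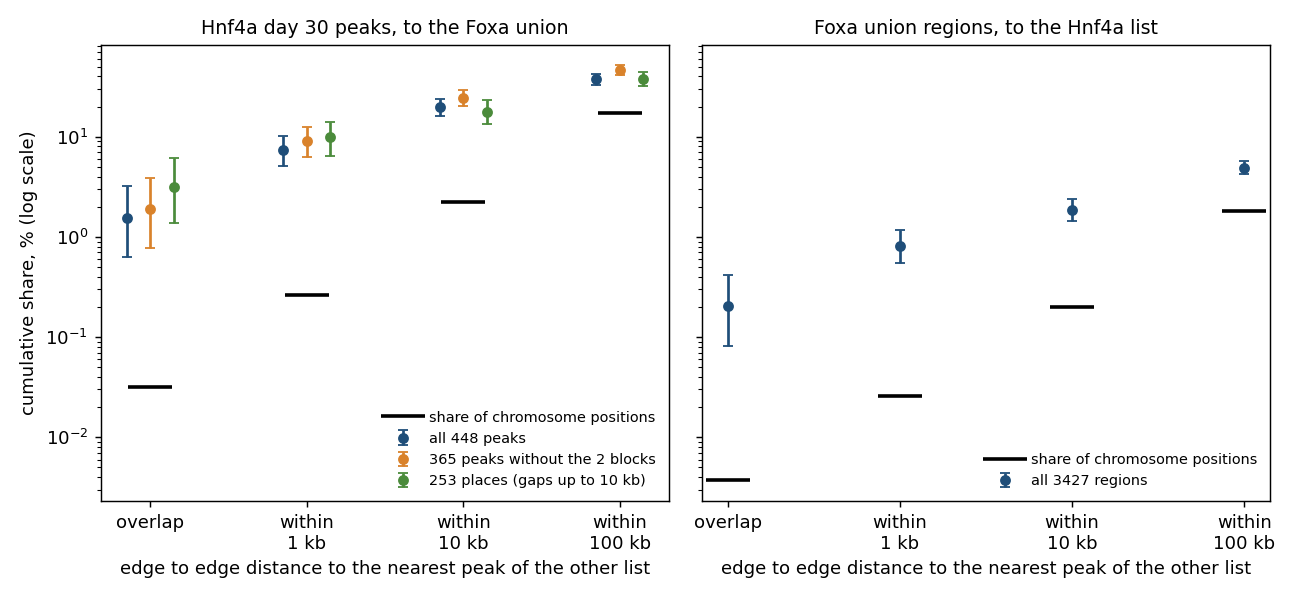
Cumulative share of sites, in percent on a log scale, at each distance from the nearest site of the other side. Points are shares with exact 95% intervals (counting error only). Black bars are the share of chromosome positions within the same distance of the full lists. Every interval lies above its bar, and the gap is narrowest at 100 kb, where 37.7% of Hnf4a peaks stand against 17.3% of positions. The intervals treat peaks as independent, which peaks in groups are not. The bars for Hnf4a are for a peak of 87 bp, and places of several peaks are wider.

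The 2 blocks held 83 Hnf4a peaks, 74 on chromosome 9 and 9 on chromosome 2, and no day 30 Foxa peak. Foxa peaks of day 2 did lie in the blocks, as given below. All 83 Hnf4a peaks were over 100 kb from a day 30 Foxa region. The nearest Foxa region was 4510 kb from the peaks on chromosome 9 and 3280 kb from those on chromosome 2. Leaving them out therefore changed no count of near peaks and lowered only the total, to 365. The overlap became 1.92% (0.774 to 3.91%), the share within 1 kb 9.04% (6.31 to 12.5%), the share within 10 kb 24.4% (20.1 to 29.1%) and the share within 100 kb 46.3% (41.1 to 51.6%). The median distance became 147 kb. Outside the 2 blocks, 196 of 365 peaks (53.7%) were still over 100 kb from any Foxa region.

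Hnf4a peaks came in groups, so that neighbours are not independent sites. Peaks chained over gaps of up to 10 kb gave 253 places, of which 210 held a single peak and 43 held 2 or more. Of the 8 places with 5 or more peaks, 2 were the blocks. The 89 peaks within 10 kb of a Foxa region came from 45 places, and 38 of the 89 from only 3 of them, with 18, 15 and 5 peaks. Counted by place, the share within 10 kb was 17.8% (13.3 to 23.1%), and for places of a single peak it was 35 of 210 (16.7%, 11.9 to 22.4%). For places of 2 or more peaks it was 10 of 43 (23.3%, 11.8 to 38.6%), an interval that contains the share of single peaks. A place of several peaks is also wider and has more room to lie near a Foxa region.

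The windows of 100 kb with the most Hnf4a peaks outside the blocks differed in their distance to Foxa. The window chr11:120000001-120100000 held 26 Hnf4a peaks in 2 groups, 8 in a stretch of 4.43 kb and 18 in one of 7.67 kb. Scores in this window ran from 5.1 to 13.2, with a median of 8.43. It held 1 Foxa region, listed for Foxa1 and Foxa3, which lay between peaks of the larger group and overlapped none of them. All 18 peaks of that group were within 10 kb of it, the nearest at 157 bp (0.157 kb), and the group of 8 was at least 41.7 kb away.

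The window chr6:52100001-52200000 held 19 Hnf4a peaks in 17.4 kb (chr6:52173051-52190430), with scores of 5.1 to 10.4 and a median of 8.44. No Foxa peak of day 30 lay in this window, and the nearest was 177 kb away. This was the largest group of Hnf4a peaks outside the blocks. Its 177 kb lay between the median distances of Hnf4a peaks without the blocks (147 kb) and with them (202 kb). The blocks themselves were 4510 and 3280 kb from the nearest day 30 Foxa region. The window chr5:143500001-143600000 held 15 Hnf4a peaks in 10.9 kb, with scores of 5.1 to 14.2. Its 1 Foxa region, the one listed for Foxa1 and Foxa2, lay inside the group. One of the 15 peaks overlapped that region, 2 more lay within 1 kb, and the other 12 within 7.92 kb.

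**Figure D2:**
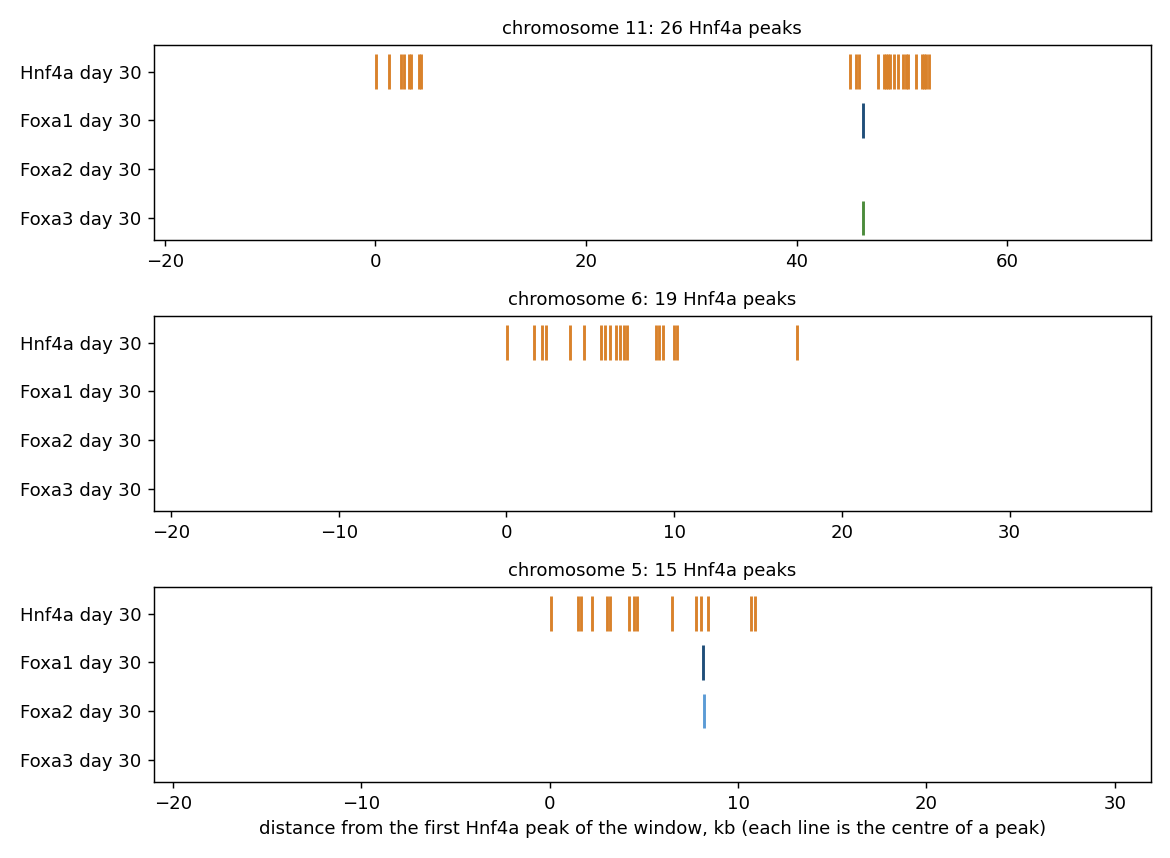
Positions of peaks in the 3 windows of 100 kb that held the most Hnf4a peaks outside the 2 blocks, by distance in kb from the first Hnf4a peak of each window; each line is the centre of 1 peak and each row is 1 day 30 list. A Foxa region lies inside a Hnf4a group on chromosomes 11 and 5, and the nearest to the 19 peaks on chromosome 6 is 177 kb away.

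Smaller groups also differed in their distance to Foxa. On chromosome 17, 5 Hnf4a peaks in 2.03 kb (chr17:84584468-84586496) all lay within 10 kb of Foxa regions, of which the surrounding window held 5. On chromosome 1, 7 peaks in 4.05 kb (chr1:165238968-165243013) were 18.2 to 22.2 kb from the nearest Foxa region. A window on chromosome 3 held 5 peaks over 15.5 kb, not all joined by gaps of up to 10 kb, and these were 310 to 326 kb from the nearest Foxa region. Without the blocks and the 3 densest windows, 56 of 305 Hnf4a peaks (18.4%) were within 10 kb and 6 (1.97%) overlapped.

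High Hnf4a scores were found in each distance group beyond 1 kb, the groups with the most peaks (56, 80 and 279). Between 1 and 10 kb the leading peaks were chr4:150229671-150229797, 6760 bp from a Foxa1 peak, chr6:51121807-51122099, 4522 bp from one, and chr5:143578427-143578556, 3744 bp from the Foxa1 peak on that chromosome. Each had a Hnf4a score of 14.2, and they rank 3 to 5 of 448. Between 10 and 100 kb the highest were chr11:120049677-120049901 (score 13.2), chr12:16857574-16857637 (12.6) and chr11:86399264-86399498 (11.3). Over 100 kb away were chr7:26022999-26023080, with the highest score of the list, 15.3, and a distance of 272057 bp, chr8:86280815-86280871 (14.0) and chr9:24346508-24346567 (13.3).

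Median scores hardly differed between distances. They were 6.77 for the 7 shared peaks, 7.56 up to 1 kb, 7.97 from 1 to 10 kb and 7.56 from 10 to 100 kb. Over 100 kb the median was 7.92, and 7.56 without the blocks, whose own median was 8.5. Median widths were 86.0, 101, 90.0, 84.5 and 87.0 bp in the same order of distances. Outside the blocks, 21 of 100 peaks in the lowest of 4 score groups lay within 10 kb of a Foxa region (interval 13.5 to 30.3%). The counts were 22 of 84 and 27 of 90 in the middle groups and 19 of 91 in the highest (20.9%, 13.1 to 30.7%). The intervals of the lowest and the highest group overlap almost fully. Many peaks share a score exactly, with 208 distinct values among the 448 and 31 peaks at 6.41, so ranks within the list are coarse.

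**Figure D3:**
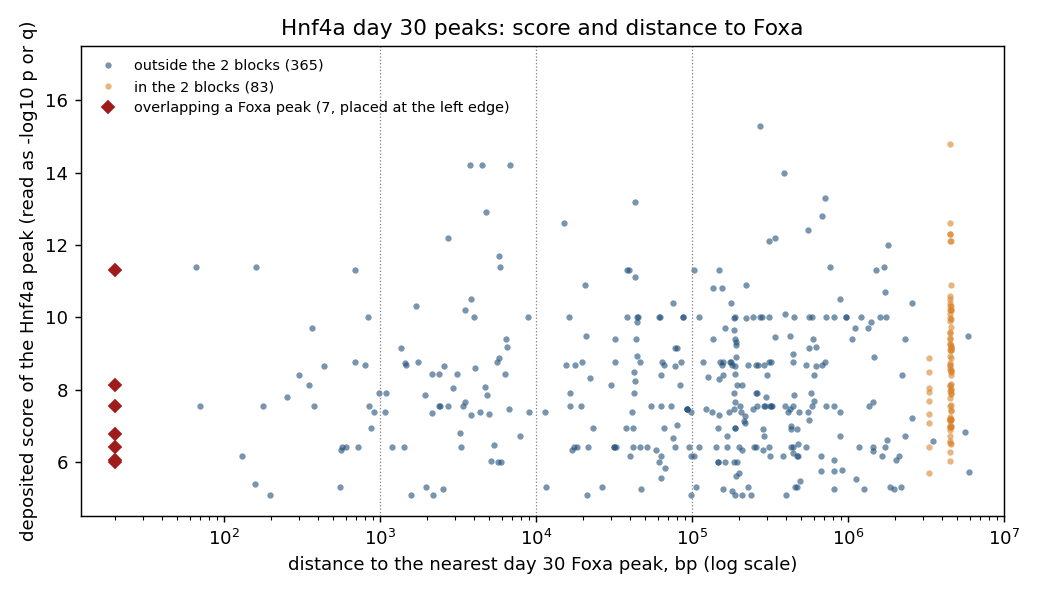
Deposited score of each Hnf4a day 30 peak (vertical, read as −log10 of a p- or q-value) against its distance to the nearest day 30 Foxa peak (horizontal, bp, log scale); dotted lines mark 1, 10 and 100 kb, and the 7 shared peaks are drawn at the left edge. The highest score is 11.3 among the 7 shared peaks and 11.4 among the 26 up to 1 kb away. It is 14.2, 13.2 and 15.3 in the 3 groups beyond 1 kb, which hold 56, 80 and 279 peaks. A highest value tends to rise with the size of a group, and the medians hardly differ (6.77, 7.56, 7.97, 7.56 and 7.92). The 83 peaks of the 2 blocks form 2 columns beyond 3280 kb.

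Seen from the Foxa side, few regions lay near a Hnf4a peak. Of the 3427 Foxa regions, 7 overlapped a Hnf4a peak (0.204%, 0.0822 to 0.42%) and 28 lay within 1 kb (0.817%). There were 64 within 10 kb (1.87%, 1.44 to 2.38%) and 169 within 100 kb (4.93%, 4.23 to 5.71%). The shares of positions that meet these limits were 0.00371, 0.0259, 0.199 and 1.83%, for a region of the median Foxa width. The median Foxa region was 3750 kb from a Hnf4a peak. Of the 64 regions within 10 kb, 47 had 1 Hnf4a peak there, and 2 had 15 and 18, the ones in the groups on chromosomes 5 and 11. The share within 10 kb was 6.0% of 400 regions without the Foxa1 list. It was 1.06% of 1705 with only peaks above the median score of their own list, which also cuts the Hnf4a list to 219 peaks. The share of positions is not given for either setting.

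The intervals of the share near Hnf4a overlapped between Foxa regions of 1, 2 and 3 Foxa lists. Within 10 kb of a Hnf4a peak lay 56 of 3134 regions of 1 Foxa list (1.79%, 1.35 to 2.31%) and 8 of 255 regions of 2 lists (3.14%, 1.36 to 6.09%). Of the 38 regions of all 3 lists it was 0, with an interval up to 9.25%. The strongest Foxa peaks with a Hnf4a peak within 10 kb were chr4:137423122-137423688 for Foxa1 (score 40.6, rank 16 of 3331), chr2:27532699-27532778 for Foxa2 (9.57, rank 58 of 174) and the chromosome 12 peak named above for Foxa3. Their distances to Hnf4a were 5136 bp for the Foxa1 peak and 575 bp for the Foxa2 peak.

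Within the Foxa1 and Foxa2 lists, peaks near Hnf4a had a median score close to that of the others. The median Foxa1 score was 11.2 for the 48 peaks within 10 kb of a Hnf4a peak and 11.0 for the rest. For Foxa2 the medians were 8.08 for 6 peaks and 8.0 for the rest. For Foxa3 they were 12.2 for 18 peaks and 10.2 for the rest, with median widths of 312 and 235 bp.

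The shares of Hnf4a and Foxa sites per chromosome, given without a test, were farthest apart on chromosome 11. Without the blocks, chromosome 11 held 58 of 365 Hnf4a peaks (15.9%) but 5.78% of the Foxa regions, and it makes up 4.64% of the length. Counted by place, so that the dense window there adds only 2, it was 28 of 251 (11.2%). Chromosome 6 held 10.7% of the Hnf4a peaks and 5.52% of the Foxa regions, and 19 of its 39 Hnf4a peaks were the group described above. Chromosome 1 showed the reverse, with 4.11% of Hnf4a peaks and 7.73% of Foxa regions, and so did chromosome 10, with 3.01 and 6.59%. On chromosome X both were rare, with 0.822% of Hnf4a peaks and 0.875% of Foxa regions on 6.35% of the length.

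**Figure D4:**
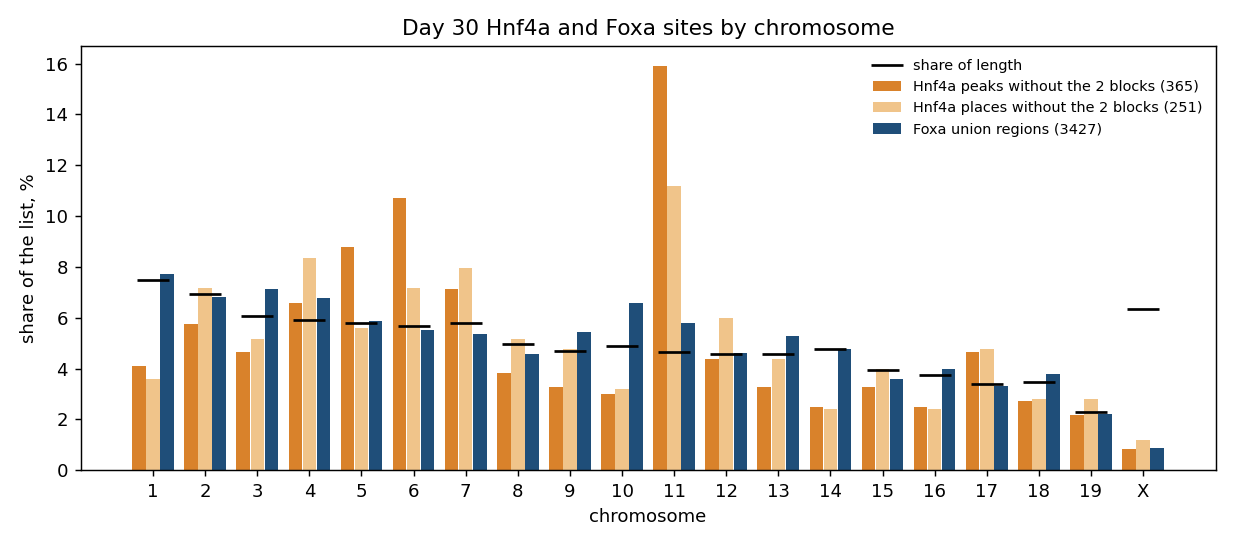
Share of sites per chromosome, in percent of each list, for Hnf4a peaks, Hnf4a places (peaks chained over gaps of up to 10 kb) and Foxa regions at day 30, without the 2 blocks; black bars are the share of length. Chromosome 11 stands out with 15.9% of the Hnf4a peaks and 11.2% of the Hnf4a places against 5.78% of the Foxa regions, and chromosome X is low for both.

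The same distances were taken to the pooled day 2 Foxa lists. With the blocks, 71 of 448 Hnf4a day 30 peaks (15.8%) overlapped a day 2 Foxa region, and without them 6 of 365 (1.64%, 0.606 to 3.54%). On day 2 the blocks thus held Foxa peaks, while the Hnf4a list of that day, with 10 peaks, had 0 in the blocks. Most of the Foxa3 list of that day fell inside them, 99 peaks from a total of 146. Foxa1 had 5 there (list length 442) and Foxa2 had 0 (list length 23). Without the blocks, the share of positions that would overlap was 0.00356% for the day 2 lists, a ratio of 462 that rests on 6 peaks. For the day 30 lists over the same 365 peaks the overlap was 1.92% against 0.0314% of positions, a ratio of 61.1. Within 10 kb, 8.22% of the 365 peaks (5.61 to 11.5%) had a day 2 Foxa region, against 0.34% of positions, a ratio of 24.2. A day 30 Foxa region lay within 10 kb of 24.4% of them, against 2.22% of positions, a ratio of 11.0. The share of peaks within 10 kb was thus higher for the longer day 30 lists, and the ratio to positions higher for the shorter day 2 lists. Shorter lists cover fewer positions and so allow a higher ratio. Neither difference was tested.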

How the data were processed

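The peak lists of the 4 day 30 ChIP samples were compared; day 2 lists were used for context, and the 8 inputs were not used here. Per the submitters' processing notes, BWA 0.6.2, MACS2 2.1.0 and bedtools 2.16.2 were used with build mm9; their settings and the use of inputs are not given in the sources used here. The lists deposited by the authors give a start, an end and a score per peak, the score read as −log10 of a p- or q-value since every score lies above 5 in lists named for MACS. Starts are printed 1-based. Chromosome length was the largest peak end over the 8 lists. Python 3.11.15, NumPy 2.4.6, SciPy 1.17.1 and Matplotlib 3.10.9 were used. Distance counting was tested on simulated data and recovered 150 of 150 planted distances. No test was run, since there was 1 sample per factor and day. Named peaks were all shared peaks, the 10 highest scoring within 1 kb, the 3 highest scoring in each further bin, the 3 highest scoring Foxa peaks per list within 10 kb of Hnf4a (1 each printed, where not given elsewhere), and the 3 windows of 100 kb with the most Hnf4a peaks; smaller groups were chosen after their values were seen, as was chaining over 10 kb. Members and rules were chosen with earlier results of these data known. Alternatives tried are in the closing section. No mm9 genome or annotation was used, so genes, motifs and sequences are not analysed here.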

Additional observations from a re-analysis of the deposited data

How the results depend on the processing

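Of 12 alternatives, 10 left the overlap of Hnf4a peaks with the Foxa regions inside its interval. It was 0.446% without the Foxa3 list and 4.02% with peak centres within 500 bp as the criterion. That interval, 0.63 to 3.19%, is wide because it rests on 7 peaks. None of the 7 lay in the blocks, on chromosome X or only at a Foxa2 peak, so those settings could hardly move the overlap. The share within 10 kb stayed inside its interval in 8 of 11 alternatives and was 24.4% without the 2 blocks, 13.7% for peaks above the median score of their list and 13.6% without the Foxa1 list. The share within 100 kb did so in 8 of 11 and was 46.3%, 27.4% and 19.4% in those same settings. For Foxa regions within 10 kb of Hnf4a, 7 of 9 stayed inside, with 1.06% for peaks above the median score and 6.0% without Foxa1. Removal of the blocks takes out only peaks far from day 30 Foxa regions. Leaving out a Foxa list can only lower the shares of Hnf4a peaks near Foxa, by construction. The setting of peaks above the median score cuts the Foxa regions from 3427 to 1705 and also the Hnf4a list, to 219 peaks. Its lower shares are therefore not fixed by construction, but shorter lists also leave fewer positions near a site. The share of positions is not given for this setting or for those that leave out a Foxa list. The lower shares of the higher scoring peaks thus cannot be told apart from the smaller lists. The causes of the changes in that setting and of the change to 6.0% were not tested. Merging within 500 bp, leaving out chromosome X, an overlap of 50% of the shorter peak, centre distances and leaving out Foxa2 changed no share beyond its interval, nor did counting by place or leaving out the densest windows, both chosen after seeing the data. Shares rest on lists of unknown depth from 1 sample each.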

Other observations

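The Hnf4a day 2 list, with 10 peaks, overlapped the later Foxa lists in an uneven way. Its 4 highest-scoring peaks all overlapped a Foxa2 day 30 peak, and none of the other 6 lay within 100 kb of any day 30 Foxa peak. The highest was chr12:45166371-45166432 (Hnf4a score 21.2, Foxa2 score 15.3, rank 10 of 174), followed by chr14:15950731-15950804 (19.1 and 14.0, rank 16). The other two were chrX:159521403-159521463 (17.6, Foxa2 rank 12) and chr2:23657172-23657228 (16.8 and 14.0, rank 17). The share is 40.0% with an interval of 12.2 to 73.8%, against 0.0281% of positions. None of the 4 was in the Foxa1 or Foxa3 day 30 list, and the nearest Hnf4a day 30 peak was at best 3800 kb away. All 4 Hnf4a peaks were 57 to 74 bp wide. The pattern was noticed on looking through the data. Peak lists alone do not show that these narrow matches are binding of either factor, and the cause was not tested.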
